A study of Homo sapiens with 6 samples.

Results

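The cadherin superfamily is a group of calcium-dependent adhesion proteins, here taken as the gene symbols formed by CDH, FAT, DCHS or CELSR and a number, or by PCDH, optional letters and a number. By this rule 96 of the 26485 gene symbols counted were members. They were 5 type I classical cadherins, 13 type II classical cadherins, 5 other CDH genes, 6 FAT and Dachsous genes, 3 CELSR genes, 11 solitary protocadherins and 53 clustered protocadherins. RNA was sequenced from EndoC-βH1, a human beta cell line grown from fetal pancreas that was transformed with a viral large T antigen and secretes insulin. The 3 libraries labelled Empty (genotype label WT) came from cells transduced with lentiCRISPRv2 carrying no guide. The 3 libraries labelled sgZHX3-3 (genotype label ZHX3 KO) came from cells given the same vector with 1 guide against the first coding exon of ZHX3, which encodes a nuclear protein with zinc fingers and homeoboxes. All cultures therefore carried the Cas9 vector and had passed antibiotic selection, and each was kept as a stable line. The sources do not say whether the 3 replicates of a group were separate lines or repeat cultures of 1 line, so p-values may measure only the spread between cultures, and effects of the 1 guide used cannot be told apart from those of the gene it targets.

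Classical cadherins hold neighbouring cells together by binding the same or a similar cadherin on the next cell, and their cytoplasmic tails bind catenins that connect the contact to actin. FAT, Dachsous and CELSR proteins are giant cadherins that orient cells within a sheet. Clustered protocadherins are encoded side by side, each with its own first exon and promoter, and neurons use different combinations of them to tell their own processes from those of other cells. In pancreatic islets the cadherins CDH1 and CDH2 join beta cells to each other.

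Library totals ran from 45101454 to 61051884 counts, and members held 0.171% to 0.176% of the counts in the Empty libraries and 0.188% to 0.195% in the sgZHX3-3 libraries. ZHX3 RNA stood at 106, 110 and 101 CPM (counts scaled to library size, with the sizes adjusted by TMM) in the Empty libraries and at 167, 180 and 183 CPM in the sgZHX3-3 libraries. The knockout label is therefore not matched by a lower RNA level, which does not measure the protein, and the groups are called by their labels throughout. Empty 1 differed from Empty 2 and Empty 3 more than those differed from each other, with a chi-square per gene of 23.3 and 22.3 against 3.63, and it was nearer to sgZHX3-3 1 (18.9) and sgZHX3-3 2 (21.5). Likewise sgZHX3-3 3 differed from sgZHX3-3 1 and sgZHX3-3 2 by 21.4 and 12.9, against 4.56 between those. No pair of libraries agreed within sampling noise. Summed CPM of 12 heat shock and NRF2 stress genes was 2800 in Empty 1, 3950 in Empty 2 and 4290 in Empty 3, against 2500 to 2890 in the sgZHX3-3 libraries, and 6 of the 12 fell. Summed CPM of 8 beta cell markers was 8380, 6740 and 6680 in the Empty libraries against 7990 to 9480 in the sgZHX3-3 libraries, and 5 of the 8 rose. Most of this sum was INS, at 6500, 5260 and 5210 CPM in the Empty libraries and 5770, 6400 and 7120 in the sgZHX3-3 libraries. INS itself was not called, with overlapping groups (edgeR adjusted p = 0.219). The part of these differences in the results below was not tested. In bulk RNA, fewer cells expressing a gene and less of its RNA per cell cannot be told apart.

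Of the 96 members, 64 passed the filter on low counts and were tested. The other 32 never exceeded 18 counts in a library, and 4 of them (PCDH15, CDH5, PCDHB7 and PCDHB12) had no count in any library, which allows at most 0.0491 to 0.0665 CPM per library (3 counts; counting error only). Those 4 include CDH5, the cadherin of endothelial contacts, and the endothelial receptor KDR was likewise at 0, while another gene of the endothelial list, EGFL7, was at 124 to 186 CPM. Among the tested members, 15 were higher and 1 was lower in the sgZHX3-3 libraries at an edgeR adjusted p below 0.05, which is 23.4% and 1.56% of the 64. Across all 16199 tested genes, 7.11% were called higher and 4.98% lower. The median log2 fold change (sgZHX3-3 over Empty) was 0.25 over the tested members and 0.00 over all tested genes. CPM did not overlap between the groups for 30 of the 64 members (46.9%) and for 32% of all tested genes.

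**Figure D1:**
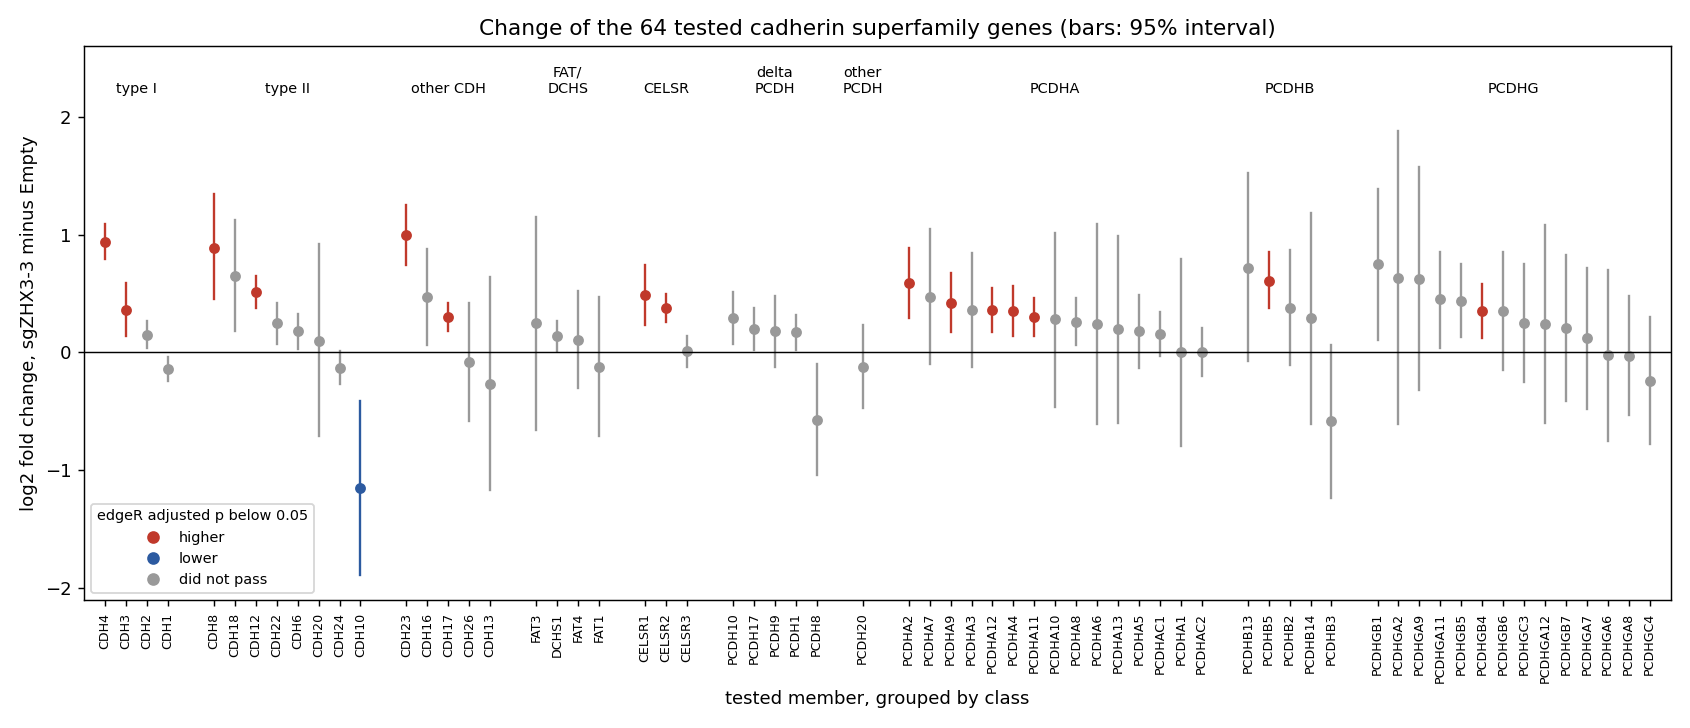
Log2 fold change (sgZHX3-3 over Empty) of each tested cadherin superfamily gene, arranged by class, with its 95% interval from edgeR (n = 3 libraries per group). CDH23 and CDH4 lie farthest to the higher side among the called genes, at 1.00 and 0.94, and CDH10 is the called gene on the lower side, at -1.15.

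The length of a gene's span on the chromosome moved with the difference. Among all tested genes over 300 kb long, 32.3% were called higher (657 genes, median log2 fold change 0.19), against 4.65% of genes under 10 kb. At 100 to 300 kb the share was 11.5%, and of the 30 tested members there 7 were called higher and 1 lower. Of the 8 tested members over 300 kb, 4 were called higher: CDH12 (1103 kb), CDH4 (688.2 kb), CDH23 (419 kb) and CDH8 (389.8 kb). With the smooth trend of the log ratio on span removed from each library, 13 of the 16 calls remained. PCDHA4, PCDHA9 and PCDHGB4 lost theirs, with edgeR adjusted p of 0.0838, 0.0514 and 0.0766. With Empty 2 and Empty 3 both left out, 4 of the 16 calls remained, those of CDH4, CDH23, CDH12 and CELSR2. With library totals in place of TMM, CDH3, PCDHA4 and PCDHGB4 did not pass (edgeR adjusted p = 0.0559, 0.0543 and 0.0673).

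The most abundant members per kilobase of their own exons were not those with the largest differences. CDH17, an intestinal and liver-type cadherin with a short cytoplasmic tail, led with 95.1 ± 6.63 CPM per kb in the Empty libraries and 117 ± 1.87 in the sgZHX3-3 libraries (SD, n = 3). CDH1, the epithelial E-cadherin, followed with a mean of 53.9 CPM per kb over all 6 libraries, and CDH2, the neural N-cadherin, with 46.8. CDH16, a kidney-type cadherin, CELSR3 and CDH22 came next at 25.4, 23.4 and 23.2 CPM per kb, and the spread of CDH16 over libraries (18.6 to 35.2) spans the means of the other 2 genes. These 6 members stood above 10 CPM per kb, 26 were at or above 1, and 41 were below 0.1.

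**Figure D2:**
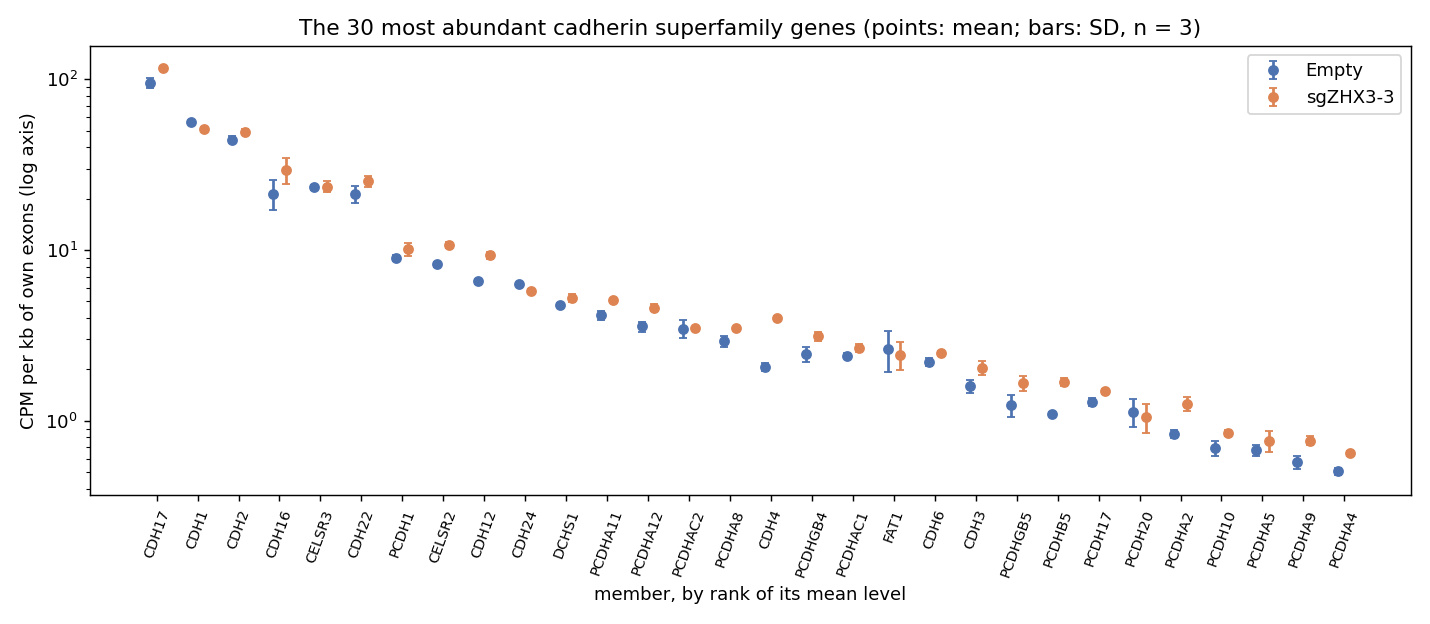
Mean level of the 30 most abundant cadherin superfamily genes in CPM per kb of exon not shared with other genes (log axis), with SD over n = 3 libraries, for Empty and sgZHX3-3. CDH17 stands highest in both groups at 95.1 and 117 CPM per kb, and the CDH4 points are the most widely separated among the genes above 1 CPM per kb.

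Among the type I classical cadherins, the most uniform difference was in CDH4, retinal or R-cadherin, at chr20:61252426-61940617 on the plus strand. CDH4 stood at 15.7, 15.7 and 14.4 CPM in the Empty libraries and at 29.5, 30.1 and 28.4 CPM in the sgZHX3-3 libraries. Every sgZHX3-3 library lay far above every Empty library, and the spread within each group was small. The means were 15.2 ± 0.732 and 29.3 ± 0.853 CPM (SD, n = 3), a 1.92-fold rise with a log2 fold change of 0.94 (SE 0.0696, 95% interval 0.79 to 1.09, edgeR adjusted p = 1.62e-05). With the span trend removed, CDH4 still rose by 0.74.

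CDH3, placental or P-cadherin, encoded next to CDH1 on chromosome 16, stood at 8.55, 8.28 and 7.19 CPM in the Empty libraries and at 10.4, 9.22 and 11.3 CPM in the sgZHX3-3 libraries. The groups did not overlap, but the lowest sgZHX3-3 library was close to the highest Empty library. Its log2 fold change was 0.36 (SE 0.105, edgeR adjusted p = 0.0395). The call was kept only without Empty 1, and leaving out any other single library gave an adjusted p of 0.0537 to 0.183.

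CDH1 and CDH2 did not pass the test. CDH1 stood at 278, 282 and 284 CPM in the Empty libraries and at 248, 256 and 261 CPM in the sgZHX3-3 libraries, so all sgZHX3-3 values lay below all Empty values. The log2 fold change was -0.14 (95% interval -0.24 to -0.04, edgeR adjusted p = 0.0742). It passed without Empty 1 (adjusted p = 0.044) and with library totals in place of TMM (log2 fold change -0.18, adjusted p = 0.0298). CDH2 stood at 207, 193 and 191 CPM in the Empty libraries and at 225, 221 and 212 CPM in the sgZHX3-3 libraries, again with no overlap but in the other direction. Its log2 fold change was 0.15 (95% interval 0.04 to 0.27, edgeR adjusted p = 0.0799), and it passed without Empty 1 (adjusted p = 0.0146). It was at 0.07 (adjusted p = 0.437) with the span trend removed and at 0.08 (0.642) with Empty 2 and Empty 3 both left out. The ratio of CDH1 to CDH2 counts, which does not depend on the scaling of the libraries, was 1.34, 1.46 and 1.49 in the Empty libraries and 1.10, 1.16 and 1.23 in the sgZHX3-3 libraries. An exact two-sided permutation test gave p = 0.1, the smallest that 3 against 3 libraries allow, and this ratio was chosen after its values were seen. CDH15, the muscle cadherin, had at most 4 counts in any library and was not tested.

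Of the 13 type II classical cadherins, 8 were tested, 2 rose and 1 fell, against 7.11% higher and 4.98% lower over all tested genes. CDH12, a brain cadherin at chr5:21750673-22853622 on the minus strand, stood at 31.9, 31.4 and 29.7 CPM in the Empty libraries and at 44.5, 46.1 and 42.1 CPM in the sgZHX3-3 libraries. The 2 groups were well separated, and the log2 fold change was 0.51 (SE 0.0634, 95% interval 0.38 to 0.65, edgeR adjusted p = 0.000374). With the span trend removed, this fell to 0.25 and CDH12 still passed. CDH8, another brain cadherin, was near 1 CPM, with 1.07, 0.896 and 0.855 CPM in the Empty libraries and 1.48, 2.15 and 1.61 CPM in the sgZHX3-3 libraries. Its groups did not overlap, and its log2 fold change was 0.89 (SE 0.207, edgeR adjusted p = 0.0154). It lost its call without Empty 2 (0.0705), without Empty 3 (0.0761) and without sgZHX3-3 2 (0.0919).

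CDH10 was the called member that fell. It had 32, 30 and 31 counts in the Empty libraries and 15, 7 and 20 counts in the sgZHX3-3 libraries. Every sgZHX3-3 library was below every Empty library, but no 5-library fit kept the call. The log2 fold change was -1.15 (SE 0.341, 95% interval -1.89 to -0.41, edgeR adjusted p = 0.0453), and leaving out each library in turn gave -1.36 to -0.85 with an adjusted p of 0.059 to 0.171. CDH18, CDH12, CDH10 and CDH9 follow one another on the short arm of chromosome 5. CDH18 stood at 1.73, 1.27 and 1.26 CPM against 2.39, 1.56 and 2.67 CPM, with overlapping groups and a log2 fold change of 0.65 that did not pass (edgeR adjusted p = 0.0719). It passed without Empty 1 (0.81, adjusted p = 0.0281), without sgZHX3-3 2 (0.84, 0.0353) and with no expression filter (0.65, 0.0471), and was at 0.39 (0.278) with the span trend removed and 0.36 (0.638) with Empty 2 and Empty 3 both left out. CDH9 was too low to test. These neighbours thus held 1 gene that rose, 1 that fell and 1 that did not pass, in genes oriented the same way on the minus strand.

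CDH22, the most abundant type II cadherin per kilobase, stood at 92.9, 74.7 and 81.4 CPM in the Empty libraries and at 91.1, 98.4 and 105 CPM in the sgZHX3-3 libraries. Empty 1 was as high as the lowest sgZHX3-3 library, and the log2 fold change of 0.25 did not pass (edgeR adjusted p = 0.0606). Without Empty 1 it was 0.34 with an adjusted p of 0.00477, and without sgZHX3-3 1 it was 0.30 with an adjusted p of 0.0473. CDH22 also passed in DESeq2 (0.25, adjusted p = 0.0285) and with no expression filter (0.24, 0.0413), and was at 0.08 (0.732) with Empty 2 and Empty 3 both left out. CDH6 and CDH24 had log2 fold changes of 0.18 and -0.13 and did not pass (edgeR adjusted p = 0.112 and 0.22).

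Of the 5 remaining CDH genes, all tested, 2 rose, against 7.11% of all tested genes. CDH23, which forms the tip links of hair cells in the inner ear, lies at chr10:71396934-71815947 on the plus strand. It stood at 4.08, 4.56 and 4.07 CPM in the Empty libraries and at 8.10, 9.64 and 7.68 CPM in the sgZHX3-3 libraries. All sgZHX3-3 values lay above all Empty values, with means of 4.24 ± 0.28 and 8.48 ± 1.03 CPM (SD, n = 3). The log2 fold change was 1.00 (SE 0.116, 95% interval 0.74 to 1.25, edgeR adjusted p = 0.000267), and 0.85 with the span trend removed. CDH23 overlaps C10orf105 on the opposite strand by 3444 exonic bases. C10orf105 itself had 1, 2 and 2 counts in the Empty libraries and 4, 5 and 5 counts in the sgZHX3-3 libraries. Whether the counting used strand is not given, so reads of this overlap cannot be assigned with certainty.

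CDH17 stood at 389, 356 and 340 CPM in the Empty libraries and at 450, 446 and 436 CPM in the sgZHX3-3 libraries. Empty 1 was the highest of its group, yet below all sgZHX3-3 libraries. The log2 fold change was 0.30 (SE 0.0565, edgeR adjusted p = 0.00536), and the call was kept without any 1 library, with an adjusted p of 0.000268 to 0.0419. With Empty 2 and Empty 3 both left out it was 0.19 and did not pass (adjusted p = 0.21). CDH16 stood at 77.5, 56.8 and 54.8 CPM against 75.1, 81.7 and 104 CPM, with Empty 1 inside the sgZHX3-3 range. Its log2 fold change of 0.47 did not pass (edgeR adjusted p = 0.134), and without Empty 1 it was 0.65 with an adjusted p of 0.00667. It passed in limma-voom (0.48, adjusted p = 0.0367), and was at 0.17 (0.655) with Empty 2 and Empty 3 both left out. In CDH22 and CDH16 alike, Empty 1 lay apart from the other Empty libraries. Within that group it also had the highest summed beta cell markers and the lowest summed stress genes (2800 against 3950 and 4290 CPM). The part of either in these values was not tested.

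**Figure D3:**
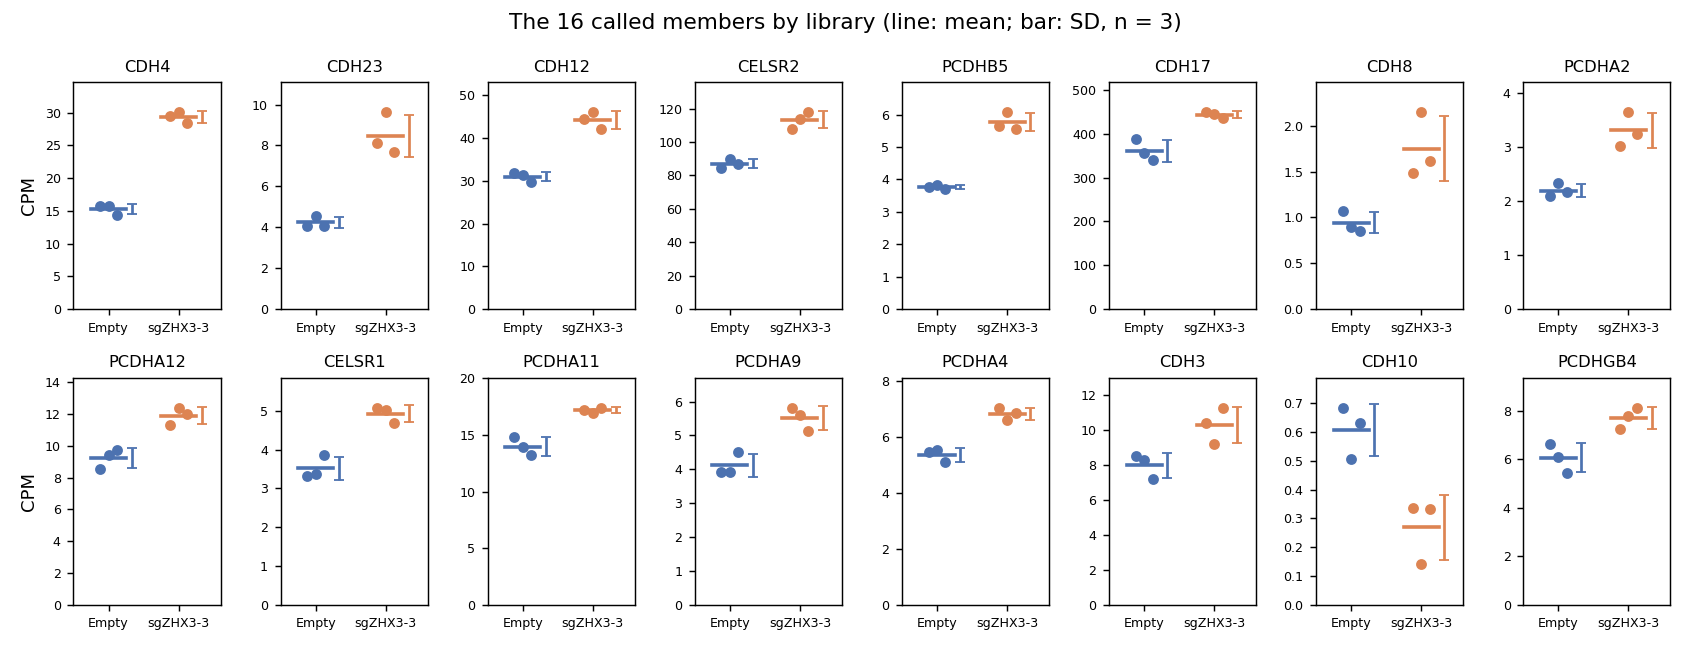
CPM in each library (points) for the 16 called cadherin superfamily genes, Empty and sgZHX3-3 side by side, with the mean (line) and SD (bar) of n = 3 libraries per group. The groups do not overlap in any of the 16, and CDH10 is the gene whose sgZHX3-3 points lie below the Empty points.

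CELSR proteins are seven-pass receptors of planar cell polarity. CELSR2 stood at 84.3, 90.1 and 86.8 CPM in the Empty libraries and at 108, 114 and 118 CPM in the sgZHX3-3 libraries, with a clear gap between the groups. Its log2 fold change was 0.38 (SE 0.0557, 95% interval 0.26 to 0.50, edgeR adjusted p = 0.00113). CELSR2 spans only 25.7 kb, at chr1:109250019-109275750 on the plus strand, and its value was 0.41 with the span trend removed. CELSR1 was much lower, with 3.31, 3.38 and 3.85 CPM against 5.08, 5.01 and 4.68 CPM, and also without overlap. CELSR1 had a log2 fold change of 0.49 (SE 0.119, edgeR adjusted p = 0.0198). It did not pass without Empty 2 (0.0889), without sgZHX3-3 1 (0.0526) and without sgZHX3-3 2 (0.088). CELSR3, the family member with the most counts, stood at 267, 283 and 282 CPM against 261, 275 and 302 CPM. The CELSR3 groups overlapped throughout, and its log2 fold change was 0.01 (95% interval -0.12 to 0.14, edgeR adjusted p = 0.939). CELSR2 and CELSR1 thus rose while CELSR3 did not pass, and the differences between these genes' changes were not tested.

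FAT and Dachsous genes encode the largest cadherins, which signal to planar polarity and to the Hippo growth pathway. Of the 6, 4 were tested and 0 passed in edgeR, in DESeq2 or in limma-voom, with 1 at an unadjusted edgeR p below 0.05. That one was DCHS1, a ligand of FAT proteins, with 50.2, 52.4 and 51.6 CPM against 53.2, 56.8 and 59.8 CPM giving 0.14 on the log2 scale (edgeR adjusted p = 0.149). FAT1 varied more within the groups than between them, from 28.1 to 48.8 CPM in the Empty libraries and from 28.4 to 40.0 CPM in the sgZHX3-3 libraries. Its log2 fold change of -0.12 (95% interval -0.71 to 0.47) changed sign without Empty 2 (0.08) or without sgZHX3-3 3 (0.03). The 22 tested genes of a planar polarity and Hippo list held 1 call, FJX1, a Golgi protein related to the kinase that modifies FAT and Dachsous, with a log2 fold change of 0.83 and an edgeR adjusted p of 0.015. FJX1 lost its call without Empty 2 (0.0767), without Empty 3 (0.0771) and without sgZHX3-3 2 (0.0769), and was at 0.51 (0.37) with Empty 2 and Empty 3 both left out. The median of that list was 0.01.

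The delta protocadherins are solitary genes with conserved cytoplasmic motifs. Of 8, 5 were tested and 0 passed in edgeR, in DESeq2 or in limma-voom, although 4 had an unadjusted edgeR p below 0.05. PCDH1, the most abundant, stood at 51.0, 47.7 and 47.4 CPM against 49.5, 55.5 and 59.5 CPM, with a log2 fold change of 0.17 and an edgeR adjusted p of 0.129. PCDH10 and PCDH17 had log2 fold changes of 0.29 and 0.20, and PCDH8 one of -0.57 (edgeR adjusted p = 0.0834, 0.133 and 0.107). The groups did not overlap in these last 3 genes.

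The 53 clustered protocadherins lie in 3 arrays on chromosome 5 and have alpha, beta and gamma members. Of these, 34 were tested, 7 rose and 0 fell in edgeR, and of the 43 other members 30 were tested, 8 rose and 1 fell. The shares over all tested genes were 7.11% higher and 4.98% lower. Most tested alpha and gamma members span 100 to 300 kb, where 11.5% of all tested genes were called higher. Alpha and gamma members share their last exons with the rest of their array, so that mainly the first exon tells them apart, and beta genes are similar single-exon copies. PCDHGB4 and PCDHGA8 each shared 4447 exonic bases with genes of the same strand, against 2181 for the other gamma members. PCDHA2 and PCDHA3 each shared 3428, against 2866 for most other alpha members. The treatment of reads that match several genes is not given, so the values of single members are uncertain to that extent. The lowest alpha member had at most 22 counts and the lowest gamma member at most 4 counts in any library, so reads from shared exons had not been credited to every member.

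Each member's own promoter is where its choice is made, and many hold a short conserved element. The sequences around this element are shown for members that rose beside members of low level that were not called. They are from RefSeq (GRCh38.p14), plus strand of chromosome 5, 5′ to 3′, with the element in capitals. A window of 250 bases before to 50 bases after the start was at hand for 73 of the 96 members. Genes were counted, each with a match in any of its promoters. The letters TGTCGCT, searched on both strands, were present in 10 of 13 alpha genes (76.9%). They were also in 1 of 14 beta and 3 of 20 gamma genes, and in 2.15% of all 27305 genes with a promoter. The letters TGGCGCT, which differ in 1 base and do not overlap the first, were present in 13 of 14 beta genes (92.9%). They were in 0 of 13 alpha and 3 of 20 gamma genes, and in 4.92% of all genes with a promoter. Both motifs were chosen after these promoters were read. Not every alpha member that rose held the element: PCDHA4 did, while PCDHA9 had neither motif on either strand. PCDHAC1 and PCDHAC2, which did not pass, also had neither, at means of 2.55 and 3.48 CPM per kb. The alpha windows shown are, in order, those of 3 members that rose and 2 members below 1 CPM. The latter, PCDHA6 and PCDHA10, had log2 fold changes of 0.24 and 0.28 and did not pass.
PCDHA11, chr5:140868876-140868922: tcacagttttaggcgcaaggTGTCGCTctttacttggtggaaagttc
PCDHA12, chr5:140875237-140875283: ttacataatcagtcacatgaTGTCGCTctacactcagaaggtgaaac
PCDHA2, chr5:140794774-140794820: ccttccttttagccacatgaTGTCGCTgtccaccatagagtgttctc
PCDHA6, chr5:140827890-140827936: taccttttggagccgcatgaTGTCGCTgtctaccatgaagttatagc
PCDHA10, chr5:140855834-140855880: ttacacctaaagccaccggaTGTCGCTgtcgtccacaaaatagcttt
The beta windows shown are those of the member that rose and of 2 members with no count.
PCDHB5, chr5:141135172-141135218: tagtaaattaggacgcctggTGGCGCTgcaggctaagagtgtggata
PCDHB7, chr5:141172559-141172605: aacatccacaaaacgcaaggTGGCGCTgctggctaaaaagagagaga
PCDHB12, chr5:141208636-141208682: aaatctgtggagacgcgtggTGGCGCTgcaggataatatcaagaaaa
The element was thus present in members at very different levels. PCDHA11 and PCDHA12 averaged 4.64 and 4.08 CPM per kb over the 6 libraries, against 0.105 for PCDHA6 and 0.0456 for PCDHA10. A match describes the letters only and was not tested as a binding site.

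All 15 alpha members were tested, and 5 rose, against 7.11% of all tested genes and 11.5% of those spanning 100 to 300 kb. The summed alpha level was 69.4, 69.9 and 70 CPM in the Empty libraries and 83.3, 82.3 and 84.5 CPM in the sgZHX3-3 libraries, so the array as a whole was higher in every sgZHX3-3 library. PCDHA11, the member with the most counts, stood at 14.8, 13.9 and 13.2 CPM against 17.2, 16.9 and 17.4 CPM, with a log2 fold change of 0.30 (SE 0.0752, edgeR adjusted p = 0.0227). PCDHA12 stood at 8.55, 9.41 and 9.73 CPM against 11.3, 12.4 and 12 CPM, with a log2 fold change of 0.36 (SE 0.088, edgeR adjusted p = 0.0187). PCDHA2 had the largest rise in the array, from 2.09, 2.33 and 2.16 CPM to 3.02, 3.65 and 3.25 CPM, with a log2 fold change of 0.59 (SE 0.14, edgeR adjusted p = 0.0172). None of these groups overlapped.

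PCDHA9 stood at 3.91, 3.92 and 4.52 CPM against 5.82, 5.61 and 5.14 CPM, and PCDHA4 at 5.45, 5.54 and 5.09 CPM against 7.05, 6.62 and 6.85 CPM. Their log2 fold changes were 0.42 and 0.35 (edgeR adjusted p = 0.0327 and 0.0376). None of the 5 alpha calls held in every fit with 1 library left out. PCDHA12 lost its call without Empty 2 or sgZHX3-3 2 (adjusted p 0.065 and 0.101), and PCDHA2 without Empty 2, Empty 3 or sgZHX3-3 2 (0.051 to 0.0972). PCDHA9 lost it without Empty 2, Empty 3, sgZHX3-3 1 or sgZHX3-3 2 (0.0576 to 0.133). PCDHA11 and PCDHA4 kept it only without Empty 1 (otherwise 0.0523 to 0.127 and 0.0839 to 0.161). PCDHA8 did not pass (log2 fold change 0.26, adjusted p = 0.0911), though it did without Empty 1 (0.0482). The 2 C-type members at the end of the array, PCDHAC1 and PCDHAC2, had log2 fold changes of 0.16 and 0.00 (edgeR adjusted p = 0.258 and 0.984). PCDHAC2 stood at 9.81, 12.5 and 11.5 CPM against 11.5, 11.2 and 11.2 CPM.

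The leading member of each array was the same in all 6 libraries, while low members changed places between libraries. PCDHA11 held 20% ± 1.28 of alpha CPM in the Empty libraries and 20.6% ± 0.0636 in the sgZHX3-3 libraries (SD, n = 3), and it ranked first in all 6. PCDHA8 held 10.9% ± 0.775 and 10.9% ± 0.271 and ranked the fifth in every library. PCDHB9, a member with at most 4 counts, ranked anywhere from 7 to 14 in its array. Mean levels reached 1 CPM in 10 of the 15 alpha members, in 2 of the 16 beta members and in 5 of the 22 gamma members.

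The beta array was low and was led by PCDHB5. PCDHB5 stood at 3.76, 3.84 and 3.69 CPM in the Empty libraries and at 5.66, 6.08 and 5.54 CPM in the sgZHX3-3 libraries, with no overlap and a tight spread. Its log2 fold change was 0.61 (SE 0.109, 95% interval 0.38 to 0.85, edgeR adjusted p = 0.00362), and the call was kept without any 1 library, with an adjusted p of 0.00322 to 0.0289. With Empty 2 and Empty 3 both left out, its value was the same, 0.61, but did not pass (adjusted p = 0.102). PCDHB5 spans 3.4 kb. PCDHB5 held 58.0% ± 2.34 of beta CPM in the Empty libraries and 66.2% ± 3.69 in the sgZHX3-3 libraries (SD, n = 3). PCDHB3, from the same array, had a log2 fold change of -0.58 and did not pass (edgeR adjusted p = 0.22), with overlapping groups. The share of PCDHB3 was 10.6% ± 0.92 in the Empty libraries and 5.16% ± 2.06 in the sgZHX3-3 libraries (SD, n = 3), which was not tested. The remaining tested beta members, PCDHB2, PCDHB13 and PCDHB14, had log2 fold changes of 0.38, 0.72 and 0.29 and did not pass (edgeR adjusted p of 0.221 to 0.698).

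The gamma array summed to 18.4, 17.5 and 17.1 CPM in the Empty libraries and to 20.4, 21.7 and 23.3 CPM in the sgZHX3-3 libraries. PCDHGB4, first in every library, stood at 6.65, 6.10 and 5.44 CPM against 7.23, 7.78 and 8.13 CPM. The groups lay close without overlapping, and the log2 fold change of 0.35 (SE 0.107) was just inside the threshold (edgeR adjusted p = 0.0497). It kept its call only without Empty 1, and leaving out any other library gave an adjusted p of 0.0588 to 0.213. PCDHGB5 stood at 3.74, 2.77 and 3.38 CPM against 4.45, 3.99 and 4.90 CPM, and its log2 fold change of 0.44 did not pass (edgeR adjusted p = 0.0619). It passed without Empty 1 (log2 fold change 0.54, adjusted p = 0.0218) and in DESeq2 (0.44, 0.0466), and was at 0.25 (0.574) with Empty 2 and Empty 3 both left out. The other 12 tested gamma members, among them the C-type PCDHGC3 (0.25) and PCDHGC4 (-0.24), did not pass, at log2 fold changes of -0.24 to 0.75.

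**Figure D4:**
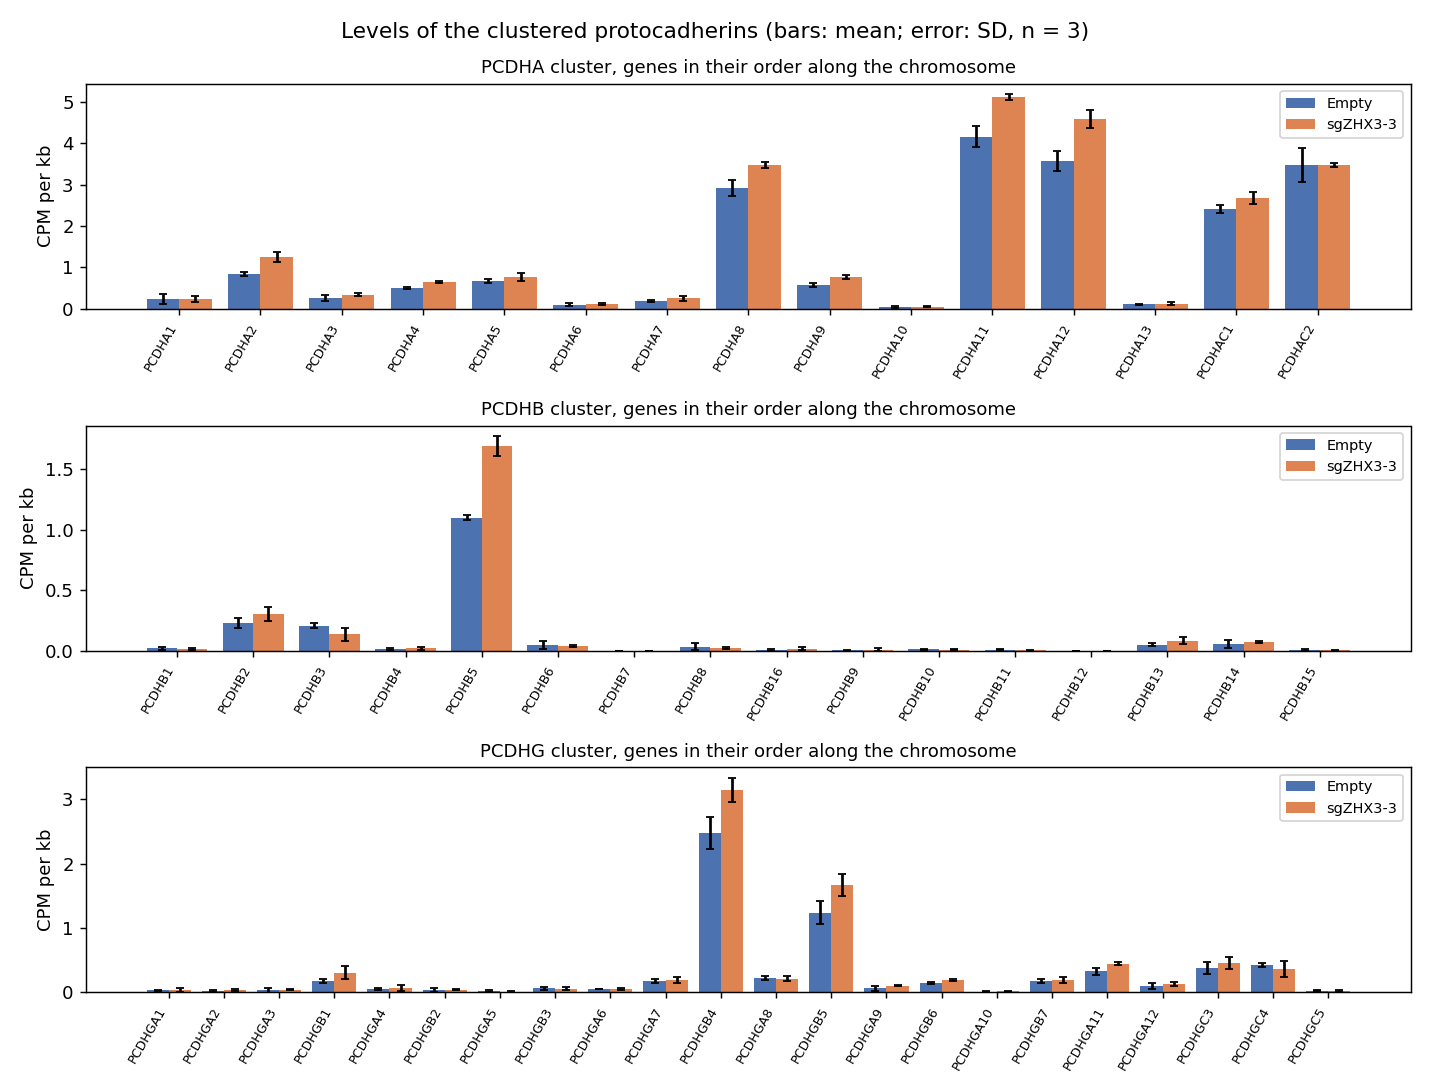
Mean level of each alpha, beta and gamma protocadherin in CPM per kb of exon not shared with other genes, for Empty and sgZHX3-3 (bars start at 0; error bars are the SD, n = 3 libraries), in the order of the genes along chromosome 5. PCDHA11 stands highest in the alpha array at 4.16 and 5.11 CPM per kb. PCDHB5 stands far above the other beta members, and PCDHGB4 leads the gamma array at 2.47 and 3.14 CPM per kb, followed by PCDHGB5 at 1.24 and 1.67.

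A list of 12 genes that shape the protocadherin arrays, including CTCF and cohesin, which loop the promoters to distal enhancers, and SMCHD1 and DNMT3B, which silence them, held 0 calls in edgeR, DESeq2 and limma-voom, with 2 at an unadjusted edgeR p below 0.05. CTCF stood at 115, 122 and 123 CPM against 109, 110 and 110 CPM, with a log2 fold change of -0.13 and an edgeR adjusted p of 0.119. The groups did not overlap. The 8 cytoplasmic partners of protocadherins, such as the kinases PTK2 and PTK2B and the WAVE complex, also held 0 calls by those tools, with 1 at an unadjusted edgeR p below 0.05.

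Among 12 catenins and junction linkers, 4 rose and 0 fell in edgeR, with a median log2 fold change of 0.08. Over all tested genes, 7.11% were called higher and 4.98% lower. The catenins found in most epithelia did not pass: CTNNB1 (beta-catenin) was at -0.01, CTNNA1 (alpha-E-catenin) at 0.06, CTNND1 (p120) at 0.07 and JUP (plakoglobin) at 0.10 on the log2 scale. CTNNA2, the neuronal alpha-N-catenin, stood at 30.3, 22.1 and 20.8 CPM against 38.1, 40.3 and 41.0 CPM (log2 fold change 0.71, edgeR adjusted p = 0.00345). CTNND2, the neuronal delta-catenin, stood at 84.9, 66.6 and 67.7 CPM against 101, 101 and 106 CPM (0.49, adjusted p = 0.00258). In both, Empty 1 was the highest of its group but below all sgZHX3-3 libraries, and both kept their calls without any 1 library. With the span trend removed CTNNA2 was at 0.41 and still passed (0.0377), while CTNND2 was at 0.25 and did not (0.0745). Neither passed with Empty 2 and Empty 3 both left out (0.40 and 0.27, adjusted p = 0.074 and 0.129). CTNNA3, alpha-T-catenin, was low, at 0.278, 0.659 and 0.407 CPM against 0.917, 1.12 and 1.05 CPM (1.17, adjusted p = 0.0224), and was no longer called without Empty 3 (0.094), sgZHX3-3 2 (0.0909) or sgZHX3-3 3 (0.0669), and with the span trend removed (0.85, adjusted p = 0.0813). The linker MLLT4 (AFDN, afadin) was at 0.18 (adjusted p = 0.0489), a call that was lost in every fit with 1 library left out (0.056 to 0.196).

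Cadherin-repeat proteins outside the naming rule were also examined. Of 12 tested 5 rose and 1 fell, against 7.11% higher and 4.98% lower over all tested genes. The median log2 fold change of this list was 0.22. CDHR2 and CDHR5, which join the tips of microvilli in gut and kidney, rose together: CDHR2 from 83.9, 79.0 and 78.7 CPM to 117, 123 and 120 CPM (0.58, edgeR adjusted p = 5.32e-05). CDHR5 stood at 85.3, 76.4 and 75.3 CPM against 96.0, 96.3 and 103 CPM (0.32, adjusted p = 0.00604). CLSTN2, a synaptic calsyntenin, had the largest rise of the list, from 12.3, 13.1 and 12.6 CPM to 21.1, 20.8 and 20.5 CPM (0.71, adjusted p = 7.91e-05). CDHR1 and the receptor tyrosine kinase RET were at 0.38 and 0.44 (adjusted p = 0.00307 and 0.00609). CDHR3 fell from 21.7, 23.8 and 22.7 CPM to 18.1, 17.1 and 16.6 CPM (-0.40, adjusted p = 0.00406). None of these groups overlapped, and all 6 calls were kept without any 1 library. With Empty 2 and Empty 3 both left out, CDHR3 (-0.33, adjusted p = 0.164), CDHR5 (0.21, 0.271) and RET (0.24, 0.271) did not pass, while CDHR1, CDHR2 and CLSTN2 did.

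Of 14 genes for cadherin maturation and shedding, 2 rose and 1 fell, against 7.11% higher and 4.98% lower over all tested genes. The median log2 fold change of this list was 0.03. FURIN, a protease that removes the propeptide of classical cadherins, was at 0.38 (edgeR adjusted p = 0.0244). TMTC2 and TMTC3, which add mannose to cadherin domains, moved in opposite directions, at 0.29 and -0.26 (adjusted p = 0.0163 and 0.0168). Without Empty 2, Empty 3 or sgZHX3-3 2, each of these 3 calls was lost, as was FURIN's without sgZHX3-3 3 (adjusted p 0.053 to 0.105 for FURIN, 0.0664 to 0.103 for TMTC2 and 0.0685 to 0.0919 for TMTC3). With the span trend removed TMTC2 was at 0.14 and did not pass (0.179). When Empty 2 and Empty 3 were both left out, FURIN was at 0.19 (0.457), TMTC2 at 0.23 (0.319) and TMTC3 at -0.21 (0.313).

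Of 9 known transcriptional regulators of CDH1, 5 were tested and SNAI1, a zinc finger repressor of CDH1, was the one called. SNAI1 stood at 0.385, 0.896 and 1.69 CPM in the Empty libraries and at 0.380, 0.180 and 0.0996 CPM in the sgZHX3-3 libraries. Empty 1 was as low as the highest sgZHX3-3 library, while Empty 2 and Empty 3, the libraries with the high stress gene sums, were higher. The part of the stress gene difference in this was not tested. The log2 fold change was -2.23 (SE 0.571, edgeR adjusted p = 0.0308), and the call was lost without Empty 2 (0.0728), Empty 3 (0.0948), sgZHX3-3 2 (0.128) or sgZHX3-3 3 (0.124). The call was also lost with no expression filter and with a replicate term, and the filter of 1 CPM in 3 libraries left SNAI1 untested. The log2 fold change was -0.86 when Empty 2 and Empty 3 were both left out.

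Markers of other cells that could carry cadherins were measured beside the members. Of 3 tested mesenchymal, 4 ductal, 1 endothelial and 1 Schwann cell markers, 0 were called by edgeR, DESeq2 or limma-voom, with 1 ductal marker at an unadjusted edgeR p below 0.05. Their summed CPM ranged from 6.11 to 6.90 in the Empty and 6.62 to 8.70 in the sgZHX3-3 libraries for the mesenchymal list, and from 66.3 to 73.8 and 72.7 to 77.5 for the ductal list. The tested endothelial gene, EGFL7, stood at 164, 124 and 125 CPM against 148, 156 and 186 CPM, with overlapping groups (log2 fold change 0.25, edgeR adjusted p = 0.204). The Schwann cell list summed to 1.71 to 1.77 CPM against 1.66 CPM in each sgZHX3-3 library. The acinar list, with 1 tested gene (CPA1), was at 33.1 to 38.6 and 42.1 to 45.2 CPM, and that gene rose (log2 fold change 0.31, edgeR adjusted p = 0.0145). Of 6 tested markers of other islet cells, IRX2, an alpha cell factor, fell from 39.3, 39.7 and 38.0 CPM to 29.8, 33.5 and 29.5 CPM (-0.34, edgeR adjusted p = 0.00728) and 0 rose, and the sum of the list was 77.5 to 87.8 CPM against 67.6 to 76.6 CPM. The part of these marker differences in the members' changes was not tested.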

How the data were processed

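The labels' protocols name a NucleoSpin kit for the RNA of the 6 cultures and a strand-marking NEBNext Ultra Directional kit for the libraries. The submitters' processing notes name STAR, featureCounts and the build hg38. Which annotation and strand setting were used, and how multiply matching reads were treated, is not given in the sources used. Each deposited column holds unnormalised counts by gene symbol, per the file headers, and was matched to a library by its label.

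Everything else was computed from these counts. Genes were kept by filterByExpr of edgeR 4.0.16 (minimum count 10, minimum total 15; R 4.3.3), which left 16199. Library sizes were scaled by TMM (factors 0.984 to 1.02), and CPM use these sizes. The groups were compared by edgeR's robust quasi-likelihood test with Benjamini-Hochberg adjustment over all tested genes, called at 0.05. The biological coefficient of variation was 6.91%. Standard errors are the absolute log2 fold change over the square root of F. CPM per kb uses exon bases of GENCODE 29 (GRCh38) that no other counted gene of the same strand shares. The script was tested on simulated data. The intervals of log2 fold changes were built from these standard errors of the quasi-likelihood fit, so they include the spread between libraries. The limit of 3 counts for a count of 0 covers counting error only. The self-made lists and the members were chosen with earlier results of these data known. Any member could be named, and from other lists the called genes, at most 6 by adjusted p, with CTNNB1, CTNNA1, CTNND1, JUP, CTCF and ZHX3. INS, CPA1, KDR, EGFL7, C10orf105 and the unvalued genes given as examples of a list lie outside that rule and were chosen after their values were seen. Alternatives were other size factors, filters, DESeq2 1.42.0, limma-voom (limma 3.58.1), a replicate term, removal of the span trend, a threshold of 0.01 and libraries left out. Figures were drawn with matplotlib 3.10.9 in Python 3.11.15.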

Additional observations from a re-analysis of the deposited data

How the results depend on the processing

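The 16 calls among members gave 238 values under the alternatives, of which 169 kept the call, 69 lost it and 0 changed sign. CDH4, CDH23, CDH12 and CELSR2 passed under every alternative run. Counts of members called higher were 6 with the replicate block, 4 with Empty 2 and Empty 3 both left out, 6 at an adjusted p below 0.01, and 6 to 21 with 1 library left out, against 15. Members called lower numbered 2 with library totals only, and 0 with the replicate block and at 0.01. The number was 0 at 1 CPM in 3 libraries, a filter that left CDH10 untested. It was 0 with DESeq2, which gave CDH10 no adjusted p, and 0 to 1 with 1 library left out. Over all tested genes, 516 were higher and 239 lower with the replicate block, 209 and 40 with both left out, 467 and 194 at 0.01, and 474 to 1792 and 184 to 1499 with 1 library left out, against 1151 and 807. With library totals only, 1272 were lower, and 41.5% of calls were higher against 58.8%. Correlations of same-numbered deviations from the group means were -0.14, 0.07 and -0.14. No sgZHX3-3 library correlated best with the Empty library of its own number. With 3 libraries per group, these values cannot show whether same-numbered libraries shared a batch. Log2 fold changes near 0 changed sign for FAT1 (-0.30 to 0.08 with 1 library left out, 0.36 without both Empty libraries), CELSR3 (-0.03 with library totals, -0.05 to 0.06 with 1 left out, below 0 without Empty 1 or sgZHX3-3 3), PCDHAC2 (-0.03 with library totals, -0.08 to 0.09 with 1 left out, below 0 without Empty 1 or sgZHX3-3 1), CTNNB1 (0.01 with the span trend removed, -0.02 to 0.03 with 1 left out, above 0 without Empty 1 or sgZHX3-3 3), CTNNA1 (-0.06 with the span trend removed), CTNND1 (-0.02 to 0.18 with 1 left out, below 0 without Empty 1) and JUP (-0.02 without both Empty libraries). The cause was not tested. Leaving out both Empty libraries leaves 1, assumed to vary like the others. Depth limits the 32 members with at most 18 counts.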
